A study of Mus musculus with 9 samples.

Results

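Laminins, nidogens, perlecan and agrin are the adhesive proteins of the basement membrane, and integrins are the surface receptors by which cells hold on to them. The genes were taken by symbol: laminin chains, both nidogens, Hspg2 (perlecan), Agrn (agrin) and integrin alpha and beta chains, each read from the brightest of its probe sets that carry a single symbol. The rule found 40 of 19938 genes, of which 14 encode ligands and 26 encode receptor chains. The rule reads symbols and uses no difference between stages.

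The RNA came from Cxcl12-DsRed+ stromal cells sorted from fetal livers (embryonic stage E15.5) and from livers of pups (postnatal day 5, P5, and postnatal day 10, P10), with 3 arrays for each of these stages. All mice had the C57BL/6 background and the genotype Cxcl12DsRed/+, so the cells of every stage carried the DsRed allele of Cxcl12, a chemokine gene of the blood stem cell niche. The sort kept cells without CD45 and Ter119, surface markers of blood cells, and with DsRed. Each stage is therefore represented by whichever liver cells passed this sort. The arrays of a stage are described as independent replicates, and the labels do not tell whether they came from separate animals or pools. The tests therefore weigh differences against the scatter among arrays, which may be technical.

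Laminins are crosses of an alpha, a beta and a gamma chain that polymerise beneath cells, nidogens bridge them to collagen IV, and perlecan and agrin tie the sheet to receptors and growth factors. Integrins pair an alpha with a beta chain, and the pair decides the ligand: Itgb1 serves collagen, laminin and fibronectin receptors, while chains such as Itgav and Itga8 recognise the RGD tripeptide of fibronectin and related proteins. In the liver, hepatic stellate cells lie between hepatocytes and sinusoidal endothelium in the space of Disse, which lacks a continuous basement membrane in the adult.

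Signals are on the log2 scale of robust multi-array averaging (RMA), where a difference of 1 is a doubling of signal. A gene was called when its adjusted p, from the moderated test of limma with Benjamini-Hochberg adjustment over all 19938 genes, was under 0.05. Array medians lay between 6.69 and 6.82, and across genes arrays of the same stage had a Pearson r of 0.986 to 0.995, those of different stages 0.875 to 0.985. The number of arrays limits the precision of every value. Signals of different probe sets are on scales of their own, so levels are compared between stages and not between genes.

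Markers of other cell types moved between stages too. The mean signal of 14 stellate cell markers was 9.18 to 9.35 on the E15.5 arrays, 7.69 to 8.12 on the P5 arrays and 7.57 to 7.82 on the P10 arrays. Of the 14, 11 were called lower at P10 than at E15.5, among them Lrat at -2.95, Lhx2 at -2.89 and Des at -2.47. Of all genes, 18.6% were called lower and 20.1% higher in that comparison. Hepatocyte markers averaged 10.22 to 10.37 at E15.5, 12.24 to 12.35 at P5 and at most 12.22 at P10. Of these 11 markers, 7 were called higher and 2 lower at P10 than at E15.5. Mesothelial markers averaged 8.27 to 8.35 at E15.5, 9.12 to 9.50 at P5 and 7.86 to 8.07 at P10. These 8 markers split, with 2 called higher and 4 lower at P10 than at E15.5. Sinusoidal endothelial markers averaged 7.01 to 7.15 at E15.5 and 6.87 to 7.26 at P10, but 6.70 on P5 array 1 against 7.89 and 8.20 on P5 arrays 2 and 3. Cxcl12, the gene of the sort, had mean signals of 10.98, 10.17 and 10.13 over the E15.5, P5 and P10 arrays. Ptprc, which encodes CD45, had mean signals of 5.05, 5.11 and 5.10 at the 3 stages, under the 30th percentile of gene means, 5.72. A list of 4 measured genes that check sort and sex averaged 7.65, 7.54 and 9.20 on the E15.5 arrays. Its means were 7.09, 7.92 and 7.86 on the P5 arrays and 7.73, 6.70 and 6.70 on the P10 arrays. This mean mixes genes of both checks, so it does not show which gene differed between arrays. The labels give no sex, and its part in the results was not tested. In such bulk RNA, fewer cells of a type and less RNA per cell cannot be told apart, and the part of cell makeup in the results below was not tested.

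**Figure D1:**
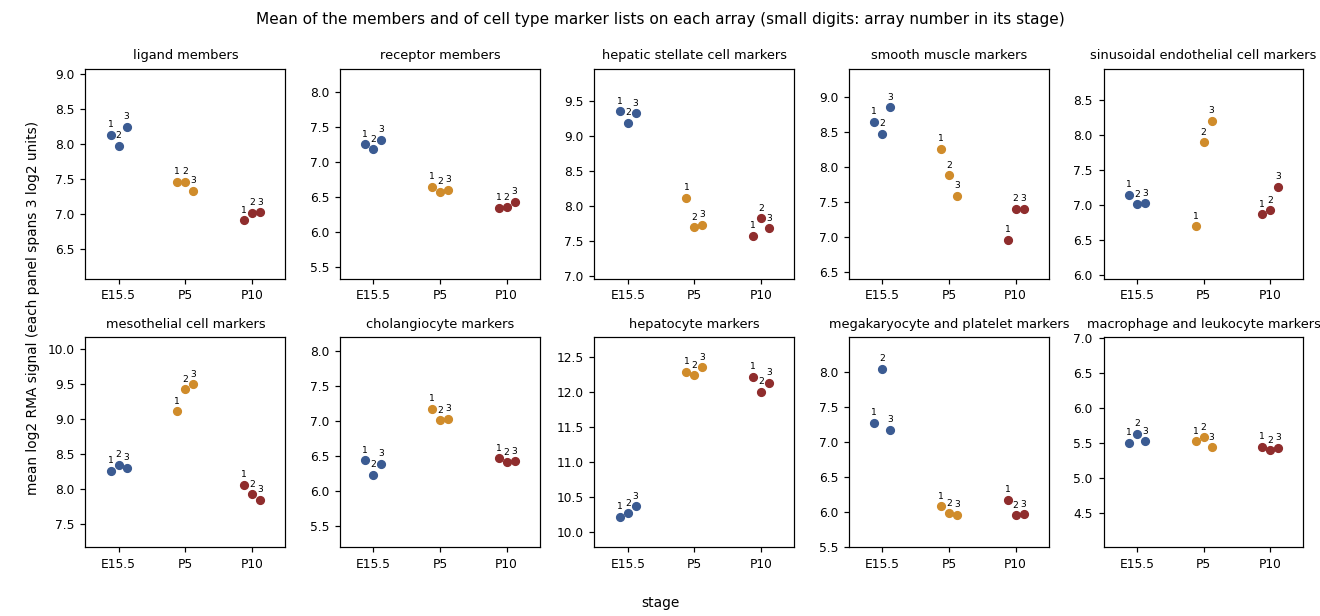
Mean log2 signal of the ligand genes, the receptor genes and 8 cell type marker lists on each array, in panels of equal span, with stage on the x axis, a point per array and the array's number in its stage beside it. Ligands, receptors and stellate cell markers are highest on the 3 E15.5 arrays, hepatocyte markers are lowest there, and P5 array 1 lies apart from the other P5 arrays in the endothelial panel.

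Most of the 40 genes were lower after birth. At P5 against E15.5, 23 were called lower and 5 higher, where 35.6% of all genes were called, 17.7% lower and 17.9% higher. Later, at P10 against E15.5, 25 were called lower and 1 higher, against 38.7% of all genes called, 18.6% lower and 20.1% higher. The 40 differences had a median of -0.59 at P5 and -0.88 at P10, beside 0.03 and 0.02 over all genes. A fall of at least 2-fold was called for 14 of the 40 at P5 (6.8% of all genes) and for 19 at P10 (8.21% of all genes), and a rise of that size for 0 at either stage (7.2% and 9.06% of all genes). The arrays of P5 and E15.5 did not overlap for 21 genes that were lower and 5 that were higher at P5 (45.2% of all genes in either direction), and those of P10 and E15.5 for 25 and 4 (51.7%). The F test of limma over the 3 stages called 26 of the 40 and 38.3% of all genes.

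All 23 genes lower at P5 were also lower at P10 against E15.5. Of these, 12 were called lower at P10 than at P5 as well, which makes them lower in all 3 comparisons: Nid1, Lamb1, Lamb2, Lamc1, Hspg2 and Agrn among the ligands, and Itga2, Itga4, Itga5, Itga8, Itgav and Itgb1 among the receptors. Lama5 was the other gene called lower at P10 against P5. How many of all genes were lower at both P5 and P10 against E15.5, or in all 3 comparisons, was not counted. Those shares cannot exceed 17.7% and 2.89%, the shares called lower at P5 against E15.5 and at P10 against P5. No gene of the 40 was called higher at P10 than at P5, and none was higher at an unadjusted p under 0.05 in limma. In that comparison 5.65% of all genes were called, 2.89% lower and 2.76% higher, and the P10 arrays lay wholly below the P5 arrays for 19 of the 40 and above them for 0 (20.2% of all genes in either direction). A 2-fold fall was called for 1 of the 40 (0.813% of all genes) and a 2-fold rise for 0 (0.396%). The falls between P5 and P10 were less firm: 5 of 13 remained called whichever array was left out. The number called was 8 without E15.5 array 1, 6 without P5 array 1, 8 without P5 array 2 or 3, 8 without P10 array 1 and 7 without P10 array 2. Of all genes, 576 were called lower with every array kept. In these fits that number was 443, 458, 401 and 583 (P5 arrays 2 and 3), 415 and 336, in that order.

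**Figure D2:**
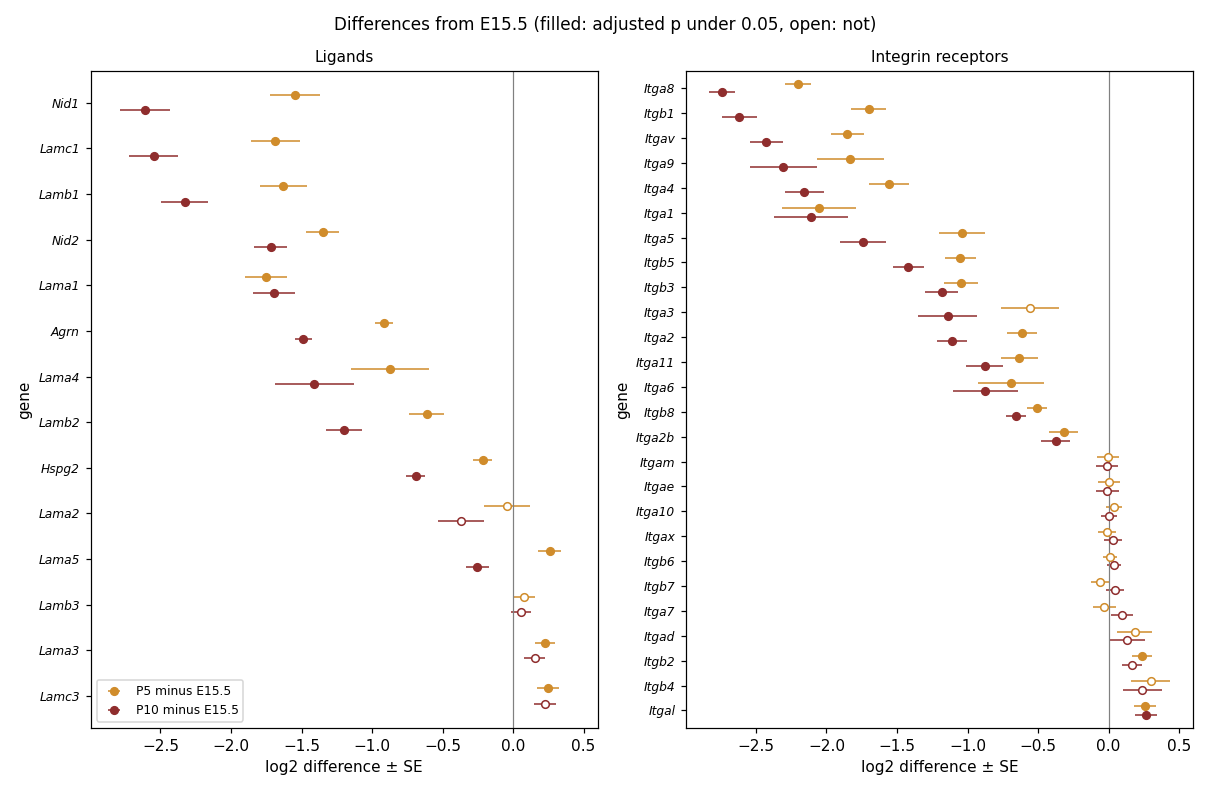
Log2 differences from E15.5 with the standard error of the model (x axis) for each of the 14 ligand and 26 receptor genes (y axis), at P5 and at P10, with filled points for genes called at an adjusted p under 0.05. The P10 points of Nid1, Lamc1, Lamb1, Itga8, Itgb1, Itgav, Itga9, Itga4 and Itga1 lie below -2, and the called rises all lie under 0.3.

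Among the ligands, the nidogens and the chains of the common laminins fell together. Nid1, the nidogen that links laminin to collagen IV, had signals of 10.28, 10.26 and 10.40 at E15.5, 8.87, 9.01 and 8.42 at P5, and 7.46, 8.0 and 7.65 at P10. The 3 stages did not overlap. Nid1 at P10 was 6.10-fold lower than at E15.5 (log2 difference -2.61 ± 0.18 SE, limma adjusted p = 6.16e-06), and it was the only one of the 40 to fall by at least 2-fold at P10 against P5 (-1.06 ± 0.18, adjusted p = 0.0125). Nid2, the second nidogen, had signals of 9.16, 8.86 and 9.16 at E15.5, 7.81, 7.80 and 7.52 at P5, and 7.22, 7.44 and 7.36 at P10. Its stages did not overlap either, and its difference was -1.72 ± 0.12 at P10 against E15.5, while -0.37 at P10 against P5 missed the threshold (adjusted p = 0.119). The log2 falls of the 2 nidogens differed in size, a contrast between genes that was not tested. Nid1 minus Nid2 on the same array was 1.12 to 1.40 at E15.5, 0.89 to 1.22 at P5 and 0.24 to 0.56 at P10. The E15.5 and P5 ranges overlapped, and P10 lay below both.

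Lamc1, the gamma chain of most laminins, had signals of 10.77, 10.59 and 10.98 at E15.5, 9.19, 8.96 and 9.13 at P5, and 7.83, 8.47 and 8.40 at P10. Lamb1, the beta chain of embryonic laminins, had 9.88, 9.45 and 9.91 at E15.5, 8.44, 7.88 and 8.05 at P5, and 7.33, 7.50 and 7.43 at P10. For both genes the 3 stages were separate. At P10 against E15.5, Lamc1 was 5.84-fold lower (-2.55 ± 0.17, limma adjusted p = 6.61e-06) and Lamb1 5.02-fold lower (-2.33 ± 0.17, adjusted p = 8.54e-06). Their falls at P10 against P5, -0.86 and -0.70, held in 5 and 2 of the 9 fits that each left out 1 array.

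Lamb2, the beta chain of many mature basement membranes, had a smaller log2 fall than Lamb1, though this contrast was not tested. It had signals of 8.43, 8.19 and 8.46 at E15.5, 7.63, 7.95 and 7.67 at P5, and 7.16, 6.98 and 7.35 at P10, a difference of -1.20 ± 0.13 at P10 against E15.5. On the same arrays, Lamb1 minus Lamb2 was 1.26 to 1.45 at E15.5, -0.07 to 0.80 at P5 and 0.08 to 0.52 at P10, so the P5 and P10 ranges overlapped and both lay below E15.5. Lamb3, a chain of epithelial laminin, was not called in any comparison, with differences of 0.08 at P5 and 0.06 at P10 against E15.5.

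The alpha chains, which carry most of the binding sites for receptors, did not move as a group. Lama1, the alpha chain of early embryonic laminin, had signals of 8.07, 7.88 and 8.33 at E15.5, 6.59, 6.33 and 6.09 at P5, and 6.31, 6.50 and 6.38 at P10. The P5 and P10 arrays overlapped and all lay below E15.5. The differences from E15.5 were -1.75 ± 0.15 at P5 and -1.70 ± 0.15 at P10 (limma adjusted p = 3.49e-05 and 2.95e-05), and P10 against P5, at 0.06 ± 0.15, was not called (adjusted p = 0.910). Lama2, found in muscle and mesenchymal basement membranes, had signals of 7.62, 7.50 and 8.02 at E15.5, 7.91, 7.59 and 7.53 at P5, and 7.13, 7.52 and 7.40 at P10. The E15.5 and P10 arrays of Lama2 overlapped, and its difference of -0.37 ± 0.16 was not called (adjusted p = 0.119). Within arrays, Lama1 minus Lama2 was 0.31 to 0.45 at E15.5, -1.44 to -1.26 at P5 and -1.02 to -0.82 at P10, with no overlap between stages.

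Lama4, an alpha chain of vascular and mesenchymal laminins, was spread widely at E15.5. Its signals were 7.84, 6.91 and 8.19 at E15.5, 6.63, 6.91 and 6.78 at P5, and 6.25, 6.13 and 6.33 at P10. The P10 arrays all lay below the E15.5 arrays (-1.41 ± 0.28, limma adjusted p = 0.0036), but E15.5 array 2 overlapped the P5 range, and the call at P5 (-0.87 ± 0.28, adjusted p = 0.0398) was kept in 1 of 9 fits with an array left out, the one without that array (adjusted p = 0.000329). Of the E15.5 arrays, it also had the highest means of platelet markers, 8.04, and granulocyte markers, 6.42, and their part in the values of Lama4 was not tested.

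Lama5, the alpha chain of mature epithelial and endothelial laminins, took another course, with signals of 6.77, 6.86 and 6.77 at E15.5, 6.92, 7.24 and 7.02 at P5, and 6.58, 6.52 and 6.53 at P10. The P5 arrays were above and the P10 arrays below those of E15.5. Lama5 was lower at P10 than at P5 by a log2 difference of -0.51 ± 0.083 (limma adjusted p = 0.0117), which held whichever array was left out. Its rise at P5 (0.26 ± 0.083, adjusted p = 0.0413) held in 1 of 9 such fits, that without P5 array 1 (adjusted p = 0.0157), and its fall at P10 against E15.5 (-0.25 ± 0.083, adjusted p = 0.0411) in 2 of 9, those without P5 array 1 or P5 array 2 (lowest adjusted p = 0.0107). The endothelial and mesothelial marker lists given above also had their highest arrays at P5, and their part in the values of Lama5 was not tested.

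Lama3, an epithelial alpha chain, and Lamc3, a gamma chain of a few specialised basement membranes, were called higher at P5, by 0.22 ± 0.073 and 0.25 ± 0.078. Each call held in 2 of 9 fits with an array left out, and at P10 against E15.5 neither was called (adjusted p = 0.147 for Lama3 and 0.0506 for Lamc3). The largest called rise among the 40 genes, that of Itgal at P10 against E15.5, was 1.20-fold.

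The heparan sulfate proteoglycans both fell, by different log2 amounts, a contrast between genes that was not tested. Agrn, the matrix protein that gathers receptors at synapses and binds laminin and dystroglycan, had signals of 8.13, 8.06 and 8.03 at E15.5, 7.13, 7.21 and 7.13 at P5, and 6.51, 6.57 and 6.68 at P10. Hspg2, which encodes perlecan, had 8.45, 8.31 and 8.37 at E15.5, 8.11, 8.26 and 8.11 at P5, and 7.63, 7.67 and 7.76 at P10. Both kept their stages apart. Agrn fell by 0.91 ± 0.062 at P5 and by 1.49 ± 0.062 at P10 against E15.5 (limma adjusted p = 4.25e-07 at P10), and Hspg2 by 0.22 ± 0.068 and 0.69 ± 0.068 (adjusted p = 5.88e-05 at P10). Hspg2 minus Agrn was 0.25 to 0.34 on the E15.5 arrays, 0.98 to 1.05 on the P5 arrays and 1.08 to 1.12 on the P10 arrays. The fall of Hspg2 at P5 (adjusted p = 0.0381) was kept in 4 of 9 fits with an array left out.

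**Figure D3:**
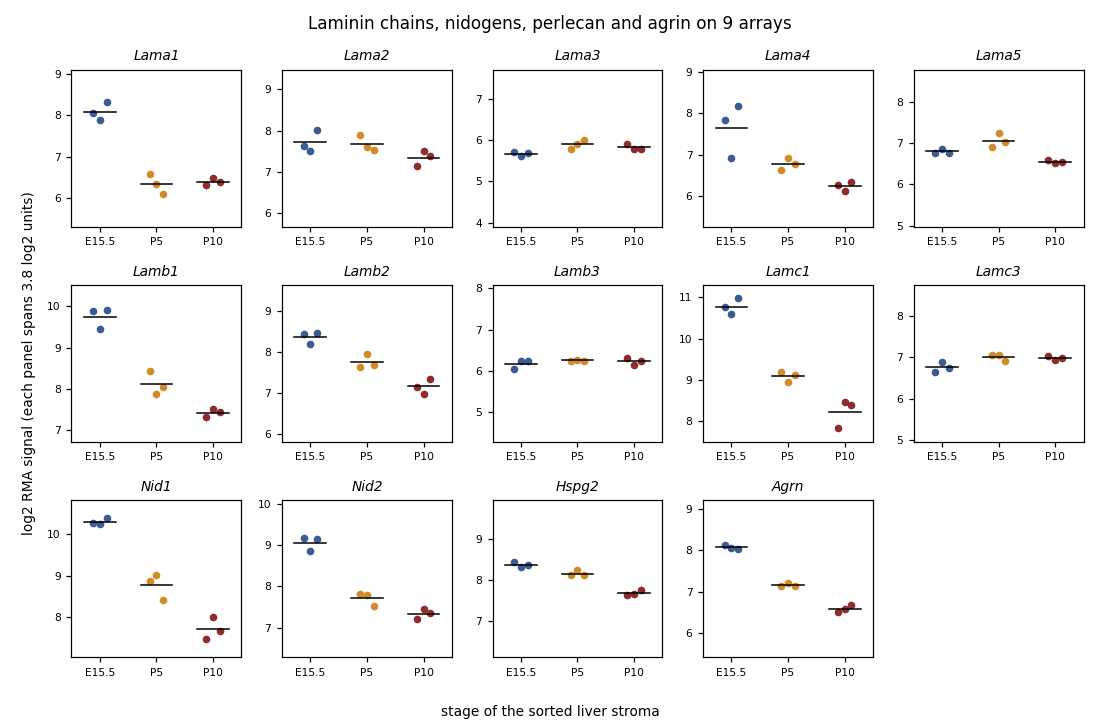
Log2 signal (y axis, panels of equal span) of the 14 ligand genes on each of 9 arrays by stage (x axis), with a point per array and a line at the stage mean. Nid1, Nid2, Lamb1, Lamb2, Lamc1, Hspg2 and Agrn step down in 3 separate groups of points, Lama1 steps down once, and Lama5 is highest at P5.

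Among the receptors, the largest falls were those of Itgb1, the RGD-binding chains Itga8 and Itgav, the cell adhesion chains Itga4 and Itga9 and the collagen-binding chain Itga1. Itgb1, the beta chain shared by most matrix-binding integrins, had signals of 11.83, 11.79 and 11.95 at E15.5, 10.22, 9.98 and 10.28 at P5, and 9.0, 9.43 and 9.30 at P10. The stages did not overlap. Itgb1 was 6.14-fold lower at P10 than at E15.5 (-2.62 ± 0.12, limma adjusted p = 7.58e-07) and 1.89-fold lower at P10 than at P5 (-0.92 ± 0.12, adjusted p = 0.00509).

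Itga8, the RGD-binding partner of Itgb1 that recognises nephronectin and is known from mesenchymal cells, had signals of 10.52, 10.44 and 10.46 at E15.5, 8.39, 8.11 and 8.31 at P5, and 7.87, 7.60 and 7.74 at P10. Its difference of -2.74 ± 0.093 at P10 against E15.5 was the largest fall among the 40 genes (6.68-fold, limma adjusted p = 1.43e-07). Itgav, the RGD-binding alpha chain that activates latent TGF-beta with several beta chains, had 10.48, 10.25 and 10.40 at E15.5, 8.63, 8.35 and 8.59 at P5, and 7.96, 8.14 and 7.76 at P10. Itgav was 5.37-fold lower at P10 than at E15.5 (-2.43 ± 0.12, adjusted p = 8.76e-07). The stages of both genes were separate, and their falls at P10 against P5, -0.54 and -0.57, held in 8 and 5 of 9 fits with an array left out.

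Itga5, the fibronectin receptor chain, fell by 1.04 ± 0.16 at P5 and by 1.74 ± 0.16 at P10 against E15.5. Itga2b, the platelet fibrinogen receptor chain, had signals of 7.10, 7.13 and 7.04 at E15.5, 6.86, 6.88 and 6.57 at P5, and 6.82, 6.55 and 6.77 at P10. Its E15.5 arrays lay above the rest by a small margin (-0.38 ± 0.10 at P10 against E15.5, limma adjusted p = 0.0189), and this call held in 6 of 9 fits with an array left out. The 4 measured platelet markers averaged 7.17 to 8.04 on the E15.5 arrays, highest on array 2, 5.96 to 6.08 at P5 and 5.95 to 6.17 at P10, and their part in the values of Itga2b and its partner Itgb3 was not tested.

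The letters before the start sites of these genes are shown because 5 of the 6 genes with the largest falls have an entry in the RefSeq promoter table (build GRCm38.p6). Each line gives the 250 bases before the start of the gene, 5′ to 3′ on the gene's strand, with GC boxes (GGGCGG, found on either strand) in capitals. The windows are chr12:31265043-31265292 on the plus strand for Lamb1, chr13:13437352-13437601 on the plus strand for Nid1, chr8:128685404-128685653 on the plus strand for Itgb1, chr2:83724147-83724396 on the plus strand for Itgav and chr2:12301945-12302194 on the minus strand for Itga8.
Lamb1 promoter: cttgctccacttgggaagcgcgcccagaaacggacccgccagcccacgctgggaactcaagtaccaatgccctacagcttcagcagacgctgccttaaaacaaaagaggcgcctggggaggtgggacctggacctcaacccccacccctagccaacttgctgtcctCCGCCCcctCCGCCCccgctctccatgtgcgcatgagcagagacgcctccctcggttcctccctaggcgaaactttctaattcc
Nid1 promoter: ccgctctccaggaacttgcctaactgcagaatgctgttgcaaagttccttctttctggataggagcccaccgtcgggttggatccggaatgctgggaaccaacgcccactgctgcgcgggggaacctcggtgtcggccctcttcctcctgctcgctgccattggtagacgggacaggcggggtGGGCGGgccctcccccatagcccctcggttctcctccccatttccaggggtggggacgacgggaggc
Itgb1 promoter: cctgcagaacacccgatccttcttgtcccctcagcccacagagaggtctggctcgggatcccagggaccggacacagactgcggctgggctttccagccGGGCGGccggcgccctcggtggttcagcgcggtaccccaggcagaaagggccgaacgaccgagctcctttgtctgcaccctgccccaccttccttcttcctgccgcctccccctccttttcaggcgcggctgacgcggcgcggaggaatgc
Itgav promoter: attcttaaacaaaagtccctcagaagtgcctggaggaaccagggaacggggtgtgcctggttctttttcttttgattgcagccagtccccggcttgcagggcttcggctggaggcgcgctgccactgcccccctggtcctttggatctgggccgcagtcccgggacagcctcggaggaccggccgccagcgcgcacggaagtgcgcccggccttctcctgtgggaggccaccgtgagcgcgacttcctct
Itga8 promoter: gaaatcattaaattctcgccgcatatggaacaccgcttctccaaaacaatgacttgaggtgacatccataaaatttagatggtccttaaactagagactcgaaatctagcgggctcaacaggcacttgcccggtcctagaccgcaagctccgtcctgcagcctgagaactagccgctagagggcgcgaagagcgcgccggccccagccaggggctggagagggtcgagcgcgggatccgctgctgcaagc
The window of Lamb1 holds 2 GC boxes, those of Nid1 and Itgb1 hold 1 each, and those of Itgav and Itga8 hold none. Their GC content was 56.4% to 68.0%, and the median of all promoters in the table was 52.4%. The table matched 26 of the 40 genes, with 30 windows. A GC box was found for 11 of the 26 genes, of which 10 were among 19 genes called lower at P10 against E15.5 and 1 among the other 7, beside 32.7% of all 32851 promoters. CCAAT was found for 5 of the 26 genes and 33.8% of all promoters, TATAAA for 0 and 12.4%, the AP-1 letters TGANTCA for 1 and 6.75%, and the CArG box for 2, Itgb6 and Lama2, and 1.47%. Both strands were searched and each motif was counted on its own, overlaps included. A gene was counted if any of its windows held the motif, while the shares over the table are per promoter. Among the 19 and the other 7 genes, CCAAT was found for 4 and 1, the AP-1 letters for 0 and 1 and the CArG box for 0 and 2. No split of motifs by call was tested. These matches describe letters in short windows and say nothing about binding.

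The chains that bind other cells and matricellular ligands also fell. Itga4, the partner of Itgb1 for Vcam1 and fibronectin, had signals of 7.66, 7.81 and 7.97 at E15.5, 6.38, 6.28 and 6.10 at P5, and 5.50, 5.51 and 5.95 at P10. Itga9, a related chain that binds tenascin C, had 9.52, 9.06 and 9.57 at E15.5, 7.91, 7.0 and 7.74 at P5, and 6.92, 7.22 and 7.09 at P10. In both genes every E15.5 array was above every later one, while the P5 and P10 arrays of Itga9 overlapped. At P10 against E15.5 the differences were -2.16 ± 0.14 for Itga4 and -2.31 ± 0.24 for Itga9 (limma adjusted p = 5.23e-06 and 7.98e-05).

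The collagen-binding chains split. Itga1, which prefers collagen IV, had signals of 9.66, 9.19 and 10.04 at E15.5, 7.51, 7.18 and 8.05 at P5, and 7.31, 7.53 and 7.72 at P10. Its P5 and P10 arrays overlapped and both lay below E15.5 (-2.05 ± 0.26 at P5 and -2.11 ± 0.26 at P10, limma adjusted p = 0.000389 and 0.000257). Itga2, which prefers fibrillar collagens, fell by 1.11 ± 0.11 at P10 against E15.5, and Itga11, a fibroblast receptor for fibrillar collagen, by 0.88 ± 0.13. Itga10, a chain known from cartilage, was not called in any comparison, with signals of 6.43 to 6.58 over all 9 arrays.

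The laminin-binding alpha chains Itga3 and Itga6 fell at P10 against E15.5, with smaller differences than the laminin chains Lamb1 and Lamc1, a contrast between genes that was not tested. Itga3 had signals of 7.76, 7.50 and 7.97 at E15.5, 6.86, 7.12 and 7.58 at P5, and 6.61, 6.34 and 6.85 at P10, and Itga6 had 7.22, 6.55 and 7.18 at E15.5, 6.45, 5.86 and 6.55 at P5, and 5.96, 6.03 and 6.33 at P10. For both, the P5 arrays overlapped E15.5 and the P10 arrays did not. At P10 against E15.5, Itga3 differed by -1.14 ± 0.21 (limma adjusted p = 0.00231), a call that held in all 9 fits with an array left out, and Itga6 by -0.87 ± 0.23 (adjusted p = 0.0164), which held in 5 of 9. The fall of Itga6 at P5 (adjusted p = 0.0478) held in 2 of 9, those without E15.5 array 2 or P5 array 3 (lowest adjusted p = 0.014). Itga7, a muscle laminin receptor chain, was not called in any comparison. Itgb4, which pairs with Itga6 in epithelial hemidesmosomes, was at 6.45 to 6.77 at E15.5, 6.65 to 7.03 at P5 and 6.70 to 7.04 at P10, and its difference of 0.24 ± 0.14 at P10 against E15.5 was not called (adjusted p = 0.220).

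Of the beta chains that can pair with Itgav, Itgb1, described above, differed by -2.62 at P10 against E15.5, beside -2.43 for Itgav, while Itgb3, Itgb5 and Itgb8 had smaller falls and Itgb6 was not called. Itgb5, a vitronectin receptor chain, had signals of 9.25, 9.01 and 9.34 at E15.5, 8.33, 7.98 and 8.14 at P5, and 7.73, 7.82 and 7.79 at P10. Itgb3, the partner of both Itgav and Itga2b, had 7.34, 7.46 and 7.76 at E15.5, 6.54, 6.50 and 6.39 at P5, and 6.17, 6.45 and 6.40 at P10. Both had every E15.5 array above the rest. The differences at P10 against E15.5 were -1.42 ± 0.11 for Itgb5, -1.18 ± 0.12 for Itgb3 and -0.66 ± 0.073 for Itgb8, which like Itgb6 serves in TGF-beta activation. Itgb6, an epithelial chain, lay at 4.70 to 4.82 over all arrays. Within arrays, Itgb1 minus Itgb5 was 2.58 to 2.78 at E15.5, 1.89 to 2.14 at P5 and 1.27 to 1.61 at P10, while Itgb3 minus Itgb5 overlapped between all stages.

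The leukocyte integrins were dim at every stage. Of Itgal, Itgam, Itgax, Itgad, Itgae, Itgb2 and Itgb7, which serve adhesion and phagocytosis in blood cells, 6 had means under the 30th percentile of gene means, as had Itgb6, and Itgad lay just above it. Itgal, at 5.20 to 5.34 at E15.5, 5.47 to 5.67 at P5 and 5.47 to 5.64 at P10, was called higher at P5 and at P10 against E15.5 (0.26 ± 0.079 and 0.27 ± 0.079, limma adjusted p = 0.0339 and 0.0273), and Itgb2 at P5 (0.24 ± 0.07, adjusted p = 0.0275). These calls held in 5, 5 and 6 of 9 fits with an array left out. With signals floored at the 30th percentile of their own array, Itgal at P10 against E15.5 was at -0.0253 (limma adjusted p = 0.577). The median over all genes was -0.0253 there too. Macrophage and leukocyte markers averaged 5.50 to 5.63 at E15.5, 5.44 to 5.58 at P5 and 5.39 to 5.44 at P10.

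**Figure D4:**
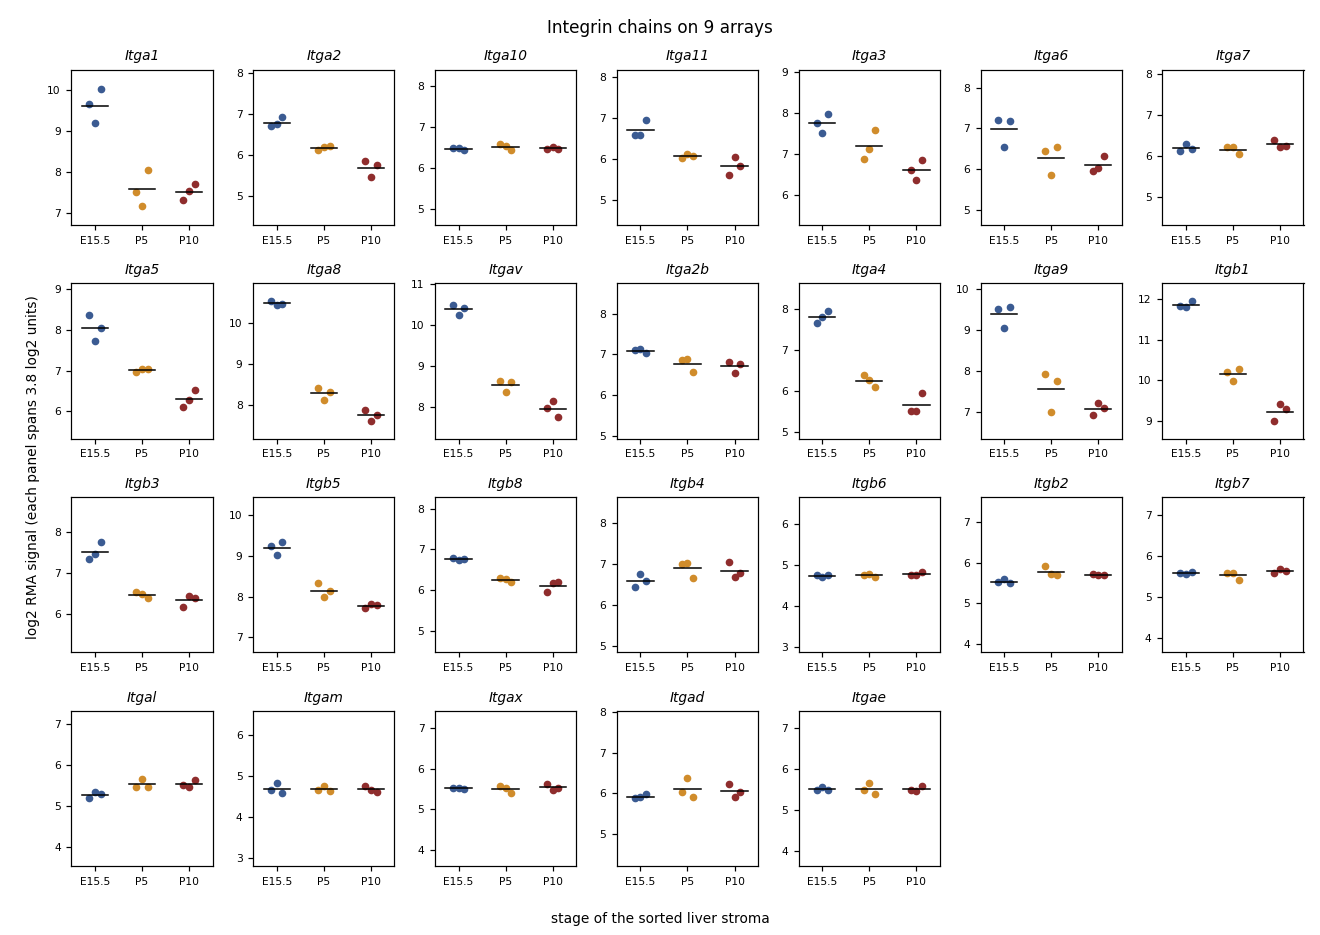
Log2 signal (y axis, panels of equal span) of the 26 integrin genes on each of 9 arrays by stage (x axis), with a point per array and a line at the stage mean. Itga1, Itga4, Itga8, Itga9, Itgav, Itgb1, Itgb3 and Itgb5 have all E15.5 points above the later ones, and the leukocyte chains stay within a narrow band.

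Ligands and receptors were set side by side. Of 14 ligands, 9 were lower and 3 higher at P5 against E15.5, 10 lower and 0 higher at P10 against E15.5 (1, Lamc3, was higher at an unadjusted p under 0.05 in limma), and 7 lower and 0 higher at P10 against P5 (0 higher unadjusted). Of 26 receptor chains, 14 were lower and 2 higher at P5, 15 lower and 1 higher at P10, and 6 lower and 0 higher at P10 against P5 (0 higher unadjusted). Over all genes, 17.7% were lower and 17.9% higher at P5, 18.6% lower and 20.1% higher at P10, and 2.89% lower and 2.76% higher at P10 against P5. The median differences were -0.74 for ligands and -0.53 for receptors at P5 against E15.5, -1.30 and -0.76 at P10 against E15.5, and -0.49 and -0.11 at P10 against P5. No test of ligands against receptors was made, since the genes are not replicates.

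On single arrays the median ligand signal minus the median receptor signal was 1.35, 1.22 and 1.32 at E15.5, 0.96, 1.09 and 1.03 at P5, and 0.94, 0.76 and 0.88 at P10. The E15.5 arrays lay above all others, and every P10 array lay below every P5 array. With means in place of medians, the gap was 0.88, 0.79 and 0.92 at E15.5, 0.80, 0.89 and 0.73 at P5, and 0.56, 0.66 and 0.59 at P10, so that E15.5 and P5 overlapped and P10 lay below both. The receptors hold all 7 genes at or under the 30th percentile. Over the 19 receptors above it, the median was -0.69 at P5 and -1.14 at P10 against E15.5, beside -0.74 and -1.30 for the ligands.

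The pace of change was compared as the later interval, P10 minus P5, minus the earlier one, P5 minus E15.5, so that a positive value marks a fall that came mostly before P5. Of the 40 genes, 9 were called positive (7.93% of all genes) and 1 negative (8.7% of all genes), where 16.6% of all genes were called either way. The positive ones were Itga1, Itga4, Itga8, Itgav, Itgb1, Itgb3, Itgb5, Lama1 and Nid2. Itga8, at 1.67 ± 0.16, and Lama1, at 1.81 ± 0.26, had the smallest adjusted p of these (0.000269 and 0.00211 in limma), and Itga1 had the largest value, 1.99 ± 0.46 (adjusted p = 0.0196). Lama5 was the negative one, at -0.77 ± 0.14 (adjusted p = 0.00782). The intervals differ in length, the earlier one, which spans birth, being the longer, and the values were not divided by time. A steady fall can therefore give a positive value. Without P5 array 2, 5 of the 40 were called for pace.

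Other genes of the same system were counted from lists, beside the same shares of all genes: 17.7% lower and 17.9% higher at P5 against E15.5, 18.6% and 20.1% at P10 against E15.5, and 2.89% and 2.76% at P10 against P5. Of 26 further basement membrane genes and their receptors, 13 were lower and 4 higher at P5 against E15.5, 16 lower and 1 higher at P10 against E15.5, and 11 lower and 0 higher at P10 against P5 (0 higher at an unadjusted p under 0.05 in limma), with a median of -0.59 at P10 against E15.5. In the P10 against E15.5 comparison, Hmcn1 (hemicentin) differed by -3.44 ± 0.088, Frem1, a protein of the Fraser complex under epithelia, by -3.99 ± 0.14, Fbln1 (fibulin) by -1.86 ± 0.081 and Sparc, a collagen-binding glycoprotein, by -1.49 ± 0.11. For their place in the pathway, further genes were looked at after their values were seen. The collagen IV chains Col4a1 and Col4a2, the network to which nidogens bind, fell by 0.75 ± 0.092 and 0.48 ± 0.068. Of the other chains of collagen IV, Col4a4 was called higher, by 0.18 ± 0.052 (limma adjusted p = 0.0218), and Col4a3, Col4a5 and Col4a6, at 0.02, -0.13 and -0.05, were not called. The laminin receptors outside the integrin family, Dag1 (dystroglycan) and Bcam, differed by -1.21 ± 0.21 and -0.67 ± 0.11.

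Of 9 genes for matrix assembly and for the glycosylation of dystroglycan, on which laminin and agrin binding depends, 8 were lower and 0 higher at P5 and at P10 against E15.5 (0 higher unadjusted in limma), and 1 was lower at P10 against P5. By P10, Serpinh1, the collagen chaperone, was below E15.5 and fell by 2.01 ± 0.088, Ext1 and Ext2, which polymerise heparan sulfate, by 1.24 ± 0.11 and 1.20 ± 0.13, and Pomt2, which starts the sugar chain of dystroglycan, by 1.15 ± 0.099.

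Of 30 other integrin ligands, 11 were lower and 3 higher at P5 against E15.5, and 18 lower and 0 higher at P10 against E15.5 (1 higher at an unadjusted p under 0.05 in limma), with a median of -0.56. Vcam1, the ligand of Itga4, differed by -2.35 ± 0.12, Mfge8, an RGD protein that binds Itgav receptors, by -2.59 ± 0.13, Ccn1, a matricellular protein, by -3.93 ± 0.26, and Fn1 (fibronectin) by -1.26 ± 0.097. Fn1 was not called at P5 against E15.5 (-0.18, adjusted p = 0.21) and fell by 1.08 at P10 against P5.

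Inside the cell, of 36 integrin adaptors and partners, 16 were lower and 8 higher at P5 against E15.5 (17.7% and 17.9% of all genes), 19 lower and 6 higher at P10 against E15.5 (18.6% and 20.1% of all genes), and 5 lower and 0 higher at P10 against P5 (3 higher unadjusted in limma). At P10 against E15.5, Flna, the filamin that binds actin and integrin tails, differed by -3.46 ± 0.11, Tgfb1i1 (Hic-5) by -2.72 ± 0.23, Tns3 (tensin) by -1.72 ± 0.12 and Cd81, a tetraspanin, by -1.65 ± 0.099. The genes that went the other way, picked after their values were seen, included Lims2, a partner of integrin-linked kinase, at 2.19 ± 0.19, Ptk2b, a focal adhesion kinase relative, at 1.13 ± 0.12, and Pxn (paxillin) at 0.76 ± 0.15.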

How the data were processed

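The files hold log2 signals per probe set on 9 arrays, made by the authors with RMA, per the submitters' processing notes. Transcriptome Analysis Console 2.0 and Affymetrix Expression Console appear in these notes too. Background correction, normalisation between arrays and summary over probes are steps of RMA. For the annotation of probes, a genome build was not given in the sources used here. Of 35556 probe sets, 21789 had 1 gene symbol, 1621 had several and 12146 were not listed. Each of 19938 genes took its brightest probe set. Itgad alone of the 40 had more than 1.

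A model with stage as the only term was fitted to all 9 arrays in limma 3.58.1 (R 4.3.3), with 6 residual degrees of freedom and 2.22 prior ones. Errors of differences are SE of the model. Data were simulated for P10 minus E15.5 over 19938 genes, of which 200 were changed. Of these, 100 of 100 changed by log2 2 and 82 of 100 changed by log2 1 were called, with 15 false calls. In the real comparison 38.7% of genes were called, so these rates need not hold there.

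Replicate numbers did not pair arrays across stages (r of deviations -0.079 to 0.069, 0 of 9 over 0.1). Genes of the other lists were named by a rule, up to 4 called genes with the smallest adjusted p at P10 against E15.5 and the first markers of a cell type. Of 17 lists with 233 entries, 210 entries were measured. The members, lists and rule were chosen with earlier results of these data known.

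Markers of lymphocytes, granulocytes, red cells, cholangiocytes, smooth muscle and the cell cycle were measured as well. At P10 against E15.5, 0 of 8 lymphocyte and 0 of 7 granulocyte markers were called in limma, with 0 and 1 at an unadjusted p under 0.05. There, 4 of 5 erythroid markers were called (1 higher, 3 lower), 2 of 6 cholangiocyte markers (higher), 4 of 7 smooth muscle markers (lower) and 5 of 9 cell cycle genes (1 higher, 4 lower). Of all genes, 38.7% were called in that comparison, 18.6% lower and 20.1% higher. The alternatives tried are given with their effects in the closing section. Figures were drawn with matplotlib 3.10.9.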

Additional observations from a re-analysis of the deposited data

How the results depend on the processing

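Of the calls, 18 of 23 falls at P5 against E15.5, 22 of 25 at P10 against E15.5 and 2 of 13 at P10 against P5 held under every setting tried, and 0 of the rises did (5 and 1 were called in limma). No called difference changed sign except Itgal at P10 against E15.5, at -0.0253 with signals floored at the 30th percentile of their own array. The median over all genes was also -0.0253 with this floor. Members called higher at P5 against E15.5, 5 as reported, were 2 with genes under the 30th percentile of gene means left out (the filter). They were 3 with the floor, 3 with a trended and robust variance and 0 with only the compared stages fitted. Over all genes, 3560 were called higher as reported, and 3447, 3317, 3650 and 3211 in that order. Members called higher at P10 against E15.5, 1 as reported, were 3 with quantile normalisation, 4 with arrays centred on the median of all genes and 3 with centring on 67 ribosomal protein genes. They were 0 with the filter, and 2 each with the mean of all probe sets, only the compared stages and array weights. Over all genes, 3998 were called higher as reported, and 4019, 6085, 5252, 3836, 4032, 4158 and 4273 in that order. Members called lower at P10 against P5, 13 as reported, were 6 with only the compared stages. Over all genes, 576 were called lower as reported and 372 with only the compared stages. The median of the receptors at P10 against E15.5 was -0.67 under either centring and -1.14 with the filter, and at P5 against E15.5 -0.45 with ribosomal centring and -0.69 with the filter. At P10 against P5 it was -0.25 with the filter and -0.20 with P5 array 1 as the only P5 array. The filter leaves out 7 dim receptors, and the causes of the other shifts were not tested.

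Centring moved the median of all genes at P10 against E15.5 to 0.12, and the share of higher among called genes was 51.8% as reported, 65.6% with the median and 62.4% with ribosomal genes. At P5 against E15.5 it was 50.2%, 54.8% and 61.5%.

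With replicate number as a block, which the arrays gave no reason to use, 1 gene was called higher at P5 against E15.5 and 6 lower at P10 against P5.

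Leaving out each array in turn gave 0 to 4 higher and 19 to 22 lower at P5 against E15.5, 0 to 2 higher and 22 to 25 lower at P10 against E15.5, and 0 higher and 6 to 12 lower at P10 against P5. Over all genes, the same fits gave 3007 to 3689 higher and 2968 to 3485 lower at P5 against E15.5. They gave 3448 to 4101 higher and 3220 to 3794 lower at P10 against E15.5, and 250 to 802 higher and 336 to 583 lower at P10 against P5. Ligand medians ran over -0.83 to -0.58, -1.39 to -1.14 and -0.52 to -0.43 in these comparisons, and receptor medians over -0.58 to -0.46, -0.80 to -0.68 and -0.17 to -0.097. Calls ran over 5 to 11 for pace and 23 to 28 in the F test over stages, 26 as reported.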
